A study of Sus scrofa with 9 samples.

Results

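Focal adhesions are the sites where a cell grips its matrix, and inside them adaptor proteins tie integrin receptors to actin filaments. Described here are 10 of these adaptors, out of the 19535 genes counted: LPP, ZYX, TRIP6, TLN1, VCL, PXN, ILK, LIMS1, PARVA and FHL2. They were chosen by name for their known place in focal adhesions, by a rule that uses no measured value, although earlier results of these data were known. Each had between 2535 and 92520 counts per library and passed the filter on low counts.

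The cells were porcine valvular interstitial cells (PVICs), the fibroblast-like cells that maintain the aortic valve, from wild-type pigs aged 4–5 months. The control group was kept in DMEM. The OIM group received osteogenic medium, in which ascorbic acid (50 µg/mL), insulin and sodium dihydrogen phosphate (2 mmol/L) are added and which induces calcium deposition. The bFGF group received the same OIM together with basic fibroblast growth factor at 50 ng/mL, so each agent in OIM is shared by the OIM and bFGF groups. Each group had 3 libraries, treated for 3 days per the labels (the study's methods give a shorter time). Neither source says whether the libraries came from separate animals or cultures, so p-values measure only the spread between these libraries, which may be technical. The primary cells were enriched by digesting the leaflet and scraping off its endothelium, and no sort is named.

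In a focal adhesion, talin (TLN1) binds the tails of activated integrins, and vinculin (VCL) joins talin to actin. Integrin-linked kinase (ILK), PINCH1 (LIMS1) and alpha-parvin (PARVA) form a stable complex beside them, and paxillin (PXN) is a scaffold that recruits signalling kinases. LPP, zyxin (ZYX) and TRIP6 are related LIM-domain proteins that gather where adhesions and actin fibres are under tension and that can also enter the nucleus, as can FHL2, another LIM-domain protein. In valve interstitial cells, large adhesions and actin stress fibres are features of the activated, myofibroblast-like state.

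In Sscrofa11.1 as annotated by RefSeq, the genes lie on 7 chromosomes. The zyxin-family genes are LPP (chr13:125782373-126478927, plus strand), ZYX (chr18:6861072-6870256, minus) and TRIP6 (chr3:8713221-8716891, plus). TLN1 (chr1:236416041-236450978, minus) and VCL (chr14:76700143-76811875, plus) encode the integrin-actin linkers. The complex of ILK is encoded by ILK (chr9:3145647-3152097, minus), LIMS1 (chr3:47607737-47704921, minus) and PARVA (chr2:46839081-47028102, minus). PXN lies at chr14:40227894-40278785 (minus) and FHL2 at chr3:49389900-49448459 (plus). LPP spans 696555 bases and TRIP6 3671, although both encode zyxin-family proteins. Exons of 4 counted genes on the other strand overlap exons of these adaptors, by 406 bases for TLN1 and CREB3, 210 for LPP and LOC106508360, 56 for ILK and TAF10 and 5 for VCL and LOC102160869, and whether the counting used strand is not given in the sources used here.

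The 300 bases before each annotated gene start were searched on both strands for 3 short motifs that are often studied for adhesion and actin genes. These were the CArG box, which serum response factor binds, GGAATG, a site of TEAD factors, and TGANTCA, a site of AP-1. The stretches of 30 bases around each match are shown because the adaptors differed in them, with the match in capitals and the gene's strand read 5′ to 3′.
VCL CArG box: cccaccatgcCCTTATAAGGagcgcccggc
VCL TEAD site far from the start: gcccctcccttgGGAATGggggcggggcgg
VCL TEAD site near the start: gcaggaccaataGGAATGgtggctccgatc
TRIP6 TEAD site: gaccctcccccaGGAATGcgatgacgtcat
LIMS1 TEAD site: gacaggggagcaGGAATGagggcgactcag
ZYX AP-1 site: agtaggaacggTGAGTCAgatctcgggcac

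The CArG box of VCL began 206 bases before the gene start, in the stretch chr14:76699927-76699956 on the plus strand. The TEAD stretches of VCL lie at chr14:76700009-76700038 and chr14:76700078-76700107 (plus), that of TRIP6 at chr3:8713182-8713211 (plus) and that of LIMS1 at chr3:47705183-47705212 (minus), and the AP-1 stretch of ZYX at chr18:6870362-6870391 (minus). Of the 10 adaptors, only VCL held a CArG box, against 1.59% of the 19527 windows of the same length in the annotation. GGAATG was found for 3 adaptors (VCL with 2 matches, TRIP6 and LIMS1) and in 12.4% of all windows. TGANTCA was found for ZYX and in 6.32% of all windows. The windows of LPP, TLN1, PXN, ILK, PARVA and FHL2 held no match, and no match overlapped another. A match is a string of letters, and no binding was measured. The window of VCL is also covered by exons of the gene LOC102160869, which is read the other way.

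The libraries held between 46773376 and 67371523 gene counts, and all 3 bFGF libraries were shallower than all 6 others. Levels below are CPM (a gene's share of the counts of its library, in parts per 1000000), scaled by TMM factors, which assume that most genes do not change. A gene was called changed when edgeR's quasi-likelihood test gave a Benjamini-Hochberg adjusted p of at most 0.05 over the 13662 genes tested and the log2 fold change was at least 0.5 in size. The markers of the labelled cell type were abundant: the 9 interstitial markers together reached 61396 to 70223 CPM in control and OIM and 37484 to 37838 in bFGF libraries. With bFGF against OIM, 4 of the 9 were called lower (COL1A1, COL1A2, COL3A1 and DCN, with COL1A1 from 25047 to 9886 CPM), VIM was called higher (5695 to 9008 CPM), and LUM, PDGFRA, PDGFRB and THY1 were not called. Endothelial markers (7 of 8 in the table) summed to 20.1 to 23.0 CPM in control and OIM and 33.0 to 35.9 with bFGF, and leukocyte markers to 14.5 to 17.8 in control and OIM and 8.76 to 9.52 with bFGF, with CD3E at 0 in every library. Of the leukocyte list, CD14 (13.5 to 7.68 CPM with bFGF against OIM) and CD163 (1.05 to 0.570) were called lower, and PTPRC, CD68 and CSF1R were not called. ITGAM was not tested (0.0332 to 0.128 CPM). In the endothelial list, PECAM1 (11.8 to 20.7 CPM), CDH5 (5.80 to 8.24), KDR (0.169 to 1.17), TEK (0.740 to 1.52) and CLDN5 (0.0601 to 0.336) were called higher with bFGF against OIM. VWF and TIE1 were not called. The 4 smooth muscle markers MYH11, CNN1, SMTN and LMOD1 summed to 665 to 683 CPM in control, 740 to 1076 in OIM and 140 to 154 in bFGF libraries, and so moved with the adaptors that were higher in OIM and lower with bFGF. The part of these markers in the results below was not tested, and in bulk RNA fewer cells of a type and less RNA per cell cannot be told apart.

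Which adaptors differed between the groups is seen first in the libraries themselves. The mean CPM was highest in OIM and lowest with bFGF for 7 adaptors (LPP, ZYX, TRIP6, TLN1, VCL, ILK and PARVA), an order seen in 18.6% of all genes tested. It was highest with bFGF and lowest in control for 2 (PXN and FHL2), as in 27.1% of all genes. The control and OIM libraries overlapped for TRIP6, TLN1, ILK and PXN, so the order of those groups is not settled there, and the LIMS1 libraries overlapped in all groups.

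**Figure D1:**
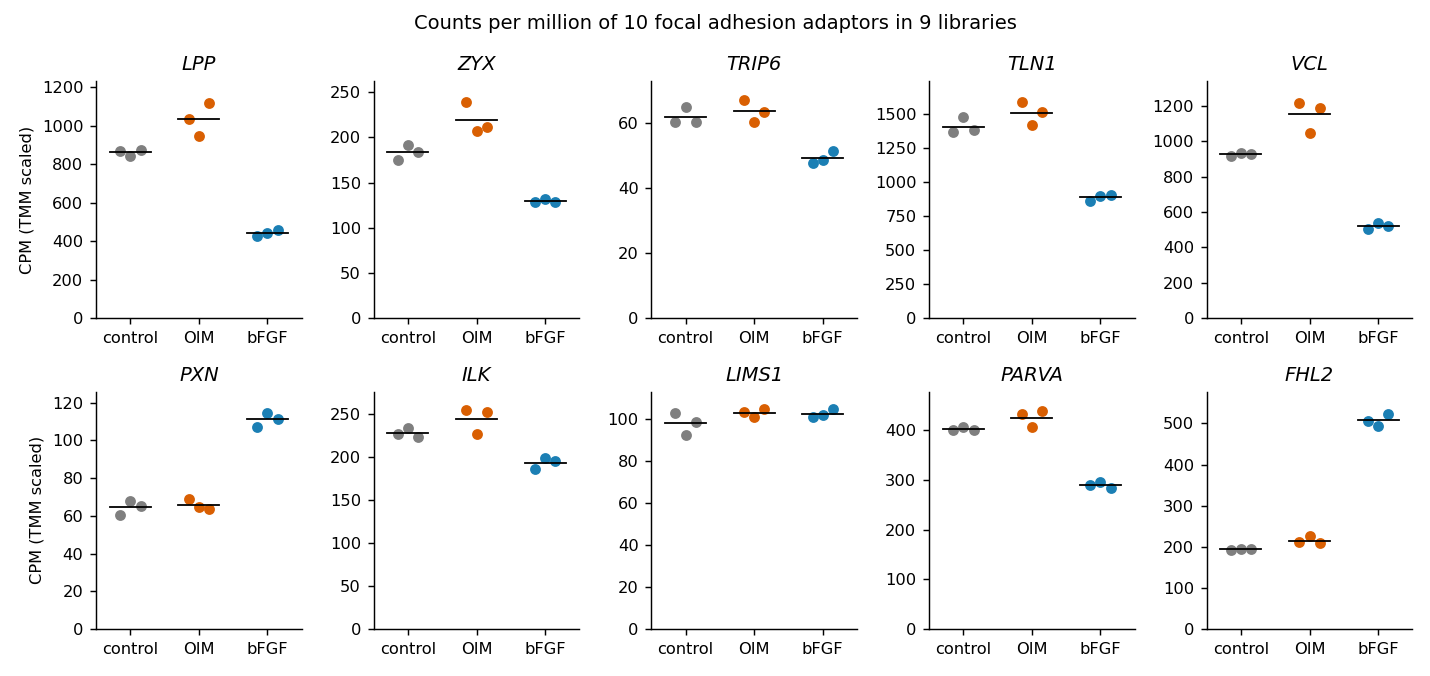
CPM (vertical axes, from 0, each gene with its own scale) of the 10 adaptors in the 3 libraries of each group, with points for libraries and a line for the group mean. LPP and VCL drop with bFGF to 444 and 522 CPM, FHL2 climbs to 507 CPM, and the LIMS1 libraries stay between 92.3 and 105 CPM.

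LPP, named for the lipomas in which the gene is rearranged, stood at 867, 840 and 876 CPM in the control libraries, 1037, 944 and 1115 in OIM and 429, 445 and 457 with bFGF. The 3 groups did not overlap, and the OIM libraries were the highest. LPP fell by 57.0% with bFGF against OIM (log2 fold change -1.22, SE 0.05, edgeR adjusted p = 9.9e-15) and fell by 48.5% against control (log2 -0.96, SE 0.05, edgeR adjusted p = 3.1e-13).

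ZYX encodes zyxin, which recruits actin-assembly factors to strained fibres. Its levels were 175, 192 and 184 CPM in control, 239, 207 and 212 in OIM and 128, 131 and 128 with bFGF, again with no overlap between groups. ZYX fell by 41.0% with bFGF against OIM (log2 -0.76, SE 0.05, edgeR adjusted p = 2.8e-11). Against control it fell by 29.6%, a log2 fold change of -0.51 that sits at the fold limit, and the call was lost at -0.48 without control replicate 2, at -0.49 without OIM replicate 2 or with only the 2 groups in the fit, and at -0.28 with library totals alone.

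TRIP6 differed less than its relatives LPP and ZYX did. It stood at 60.2, 64.8 and 60.2 CPM in control, 67.0, 60.4 and 63.3 in OIM and 47.7, 48.7 and 51.4 with bFGF. The bFGF libraries were below all others, while control and OIM overlapped. Its log2 fold change of -0.37 (SE 0.05) against OIM had an edgeR adjusted p of 2.7e-06, but did not reach the fold limit, and it was -0.15 with library totals alone.

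Among the linkers, VCL followed LPP closely. VCL stood at 918, 933 and 931 CPM in control, 1216, 1049 and 1191 in OIM and 507, 539 and 521 with bFGF. The groups did not overlap. VCL fell by 54.7% with bFGF against OIM (log2 -1.14, SE 0.04, edgeR adjusted p = 1.3e-14) and fell by 43.7% against control (log2 -0.83, SE 0.04, edgeR adjusted p = 1.4e-12).

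TLN1, whose product activates integrins, stood at 1367, 1478 and 1380 CPM in control, 1591, 1420 and 1517 in OIM and 863, 898 and 905 with bFGF. Control and OIM overlapped, and the bFGF libraries were lower than both. TLN1 fell by 41.1% with bFGF against OIM (log2 -0.76, SE 0.04, edgeR adjusted p = 1.9e-12) and fell by 36.9% against control, a call that was lost with library totals alone (log2 -0.44 in place of -0.66).

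PXN moved the other way. The scaffold gene stood at 60.4, 67.8 and 65.3 CPM in control, 69.1, 64.6 and 63.5 in OIM and 107, 115 and 112 with bFGF. Its control and OIM libraries overlapped, and the bFGF libraries were all above them. The rise with bFGF was 69.2% against OIM (log2 0.76, SE 0.05, edgeR adjusted p = 3.2e-11) and 72.4% against control (log2 0.78, SE 0.05, edgeR adjusted p = 1.6e-11).

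The genes of the ILK complex did not share 1 pattern. PARVA, which links the complex to actin, stood at 401, 406 and 400 CPM in control, 432, 406 and 438 in OIM and 290, 296 and 283 with bFGF. Its lowest OIM library lay just above the highest control library, and bFGF libraries were lower than both groups. PARVA fell by 31.9% with bFGF against OIM (log2 -0.55, SE 0.04, edgeR adjusted p = 3.3e-11), a call lost with library totals alone at -0.33, and its log2 fold change of -0.47 against control was under the fold limit.

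ILK itself stood at 226, 234 and 223 CPM in control, 254, 226 and 252 in OIM and 185, 199 and 195 with bFGF. The bFGF libraries were below all others, by a log2 fold change of -0.34 against OIM (SE 0.04, edgeR adjusted p = 1.0e-06) and -0.24 against control, neither of which reached the fold limit. With library totals alone these became -0.11 and -0.01. LIMS1, the adaptor that bridges ILK to growth factor receptor signalling, stood at 103, 92.3 and 98.3 CPM in control, 103, 101 and 105 in OIM and 101, 102 and 104 with bFGF. All groups overlapped, and the 95% interval of its log2 fold change with bFGF against OIM ran from -0.11 to 0.10.

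FHL2, a coactivator that shuttles between adhesions and the nucleus, had the largest rise of the 10. It stood at 192, 195 and 195 CPM in control, 211, 226 and 208 in OIM and 507, 493 and 522 with bFGF. The groups did not overlap. FHL2 was 2.36 times its OIM level with bFGF (log2 1.24, SE 0.04, edgeR adjusted p = 3.3e-16) and 2.61 times its control level (log2 1.39, SE 0.04, edgeR adjusted p = 5.9e-17).

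The question of OIM against control is what osteogenic medium alone does to these genes. No adaptor was called by edgeR, at 0 higher and 0 lower of 10, where 1.49% of all genes tested were called higher and 0.864% lower. DESeq2 also called 0, and 7 adaptors had an unadjusted p under 0.05 with OIM higher and 0 with OIM lower, where 14.2% and 12.0% of all genes did. By adjusted p alone, with no fold limit, 4 of the 10 were higher and 0 lower, against 7.69% and 5.87% of all genes. These were VCL (24.3% higher, log2 0.31, edgeR adjusted p = 5.4e-05), LPP (19.8%, log2 0.26, edgeR adjusted p = 5.7e-04), ZYX (19.3%, log2 0.25, edgeR adjusted p = 0.0011) and FHL2 (10.8%, log2 0.15, edgeR adjusted p = 0.011). The other 6 had log2 fold changes from 0.03 (PXN) to 0.10 (ILK and TLN1). The OIM libraries lay above all control libraries for 5 adaptors, the same 4 and PARVA, where 14.5% of all genes were higher in this way, and below them for 0, where 14.2% were lower. The median log2 fold change of the 10 was 0.10, and that of all genes tested was -0.0019. OIM replicate 2 was the lowest OIM library for 8 adaptors, all but PXN and FHL2. It was also lowest for the smooth muscle markers MYH11 (182 CPM against 325 and 337), CNN1, SMTN and LMOD1. Over all genes, OIM replicate 2 differed more from each other OIM library (mean chi-square per gene 19.3) than those libraries did from each other (5.90). Without OIM replicate 2, 7 adaptors passed by adjusted p alone, with TLN1, ILK and PARVA added, and the log2 fold changes of VCL and LPP became 0.38 and 0.32. The share of all genes that passed in that fit was not counted, so the 7 cannot be set against it. Without control replicate 1, FHL2 no longer passed (edgeR adjusted p = 0.0504).

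The comparison of bFGF with OIM asks what bFGF does to cells in the same osteogenic medium, and most adaptors changed in it. Of the 10, 5 were called lower (LPP, VCL, TLN1, ZYX and PARVA), where 18.4% of all genes tested were, and 2 were called higher (FHL2 and PXN), where 17.7% were. By adjusted p alone, 7 were lower and 2 higher, against 33.5% and 33.8% of all genes. The bFGF libraries lay below all OIM libraries for 7 adaptors, against 35.8% of all genes, and above them for 2, against 36.3%. The median log2 fold change was -0.46 over the adaptors and -0.0029 over all genes, and the median size without regard to sign was 0.76 over the adaptors and 0.39 over all genes. The TMM factors of the bFGF libraries were 1.10 to 1.11 and those of the other libraries 0.937 to 0.967. With library totals alone the median of all genes shifted to 0.22, which left 4 adaptors called lower, beside 12.4% of all genes under that scaling, and 2 higher, beside 27.3%, and turned LIMS1 from -0.01 to 0.22.

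**Figure D2:**
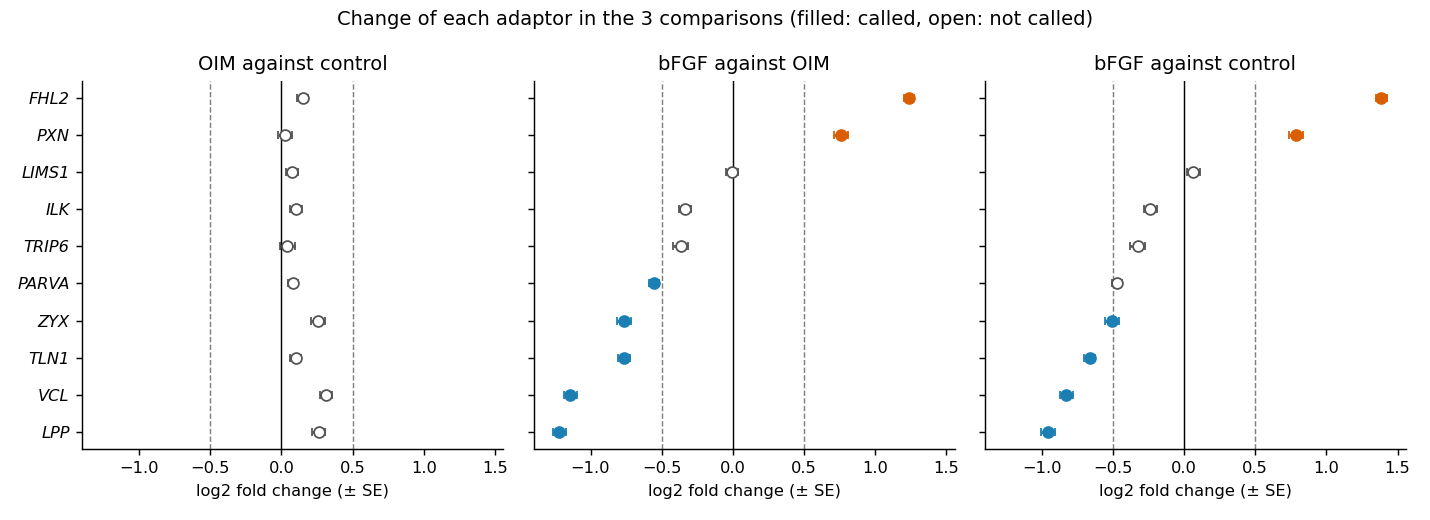
Log2 fold change (horizontal axes) with its SE for each adaptor in the 3 comparisons, filled where called, with dashed lines at the fold limit of 0.5 in each direction. OIM against control holds no filled point, and with bFGF the order runs from LPP (-1.22 against OIM) to FHL2 (1.24).

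The bFGF and control groups differ in OIM and in bFGF together. Against control, 4 adaptors were called lower (LPP, VCL, TLN1 and ZYX), beside 20.0% of all genes, and FHL2 and PXN were called higher, beside 18.9%. By adjusted p alone, 7 were lower and 2 higher, against 35.7% and 34.5% of all genes, and 2 of the 7 no longer passed with library totals alone (TRIP6 at -0.10 and ILK at -0.01 on the log2 scale). Under that scaling 2 adaptors were called lower and 2 higher, beside 13.5% and 28.8% of all genes. No overlap was seen for 7 adaptors with bFGF lower, where 37.3% of all genes were, and for 2 with bFGF higher, where 36.4% were. Both comparisons use the same bFGF libraries, so they are not independent. Of the 4 adaptors higher in OIM by adjusted p alone, VCL was at -1.14 against OIM and -0.83 against control, LPP at -1.22 and -0.96, ZYX at -0.76 and -0.51, and FHL2 at 1.24 and 1.39 on the log2 scale.

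Levels of different genes can be set side by side only per length, as RPKM over the merged exons of each gene. In control, VCL led with 168 ± 1.52 RPKM (SD, n = 3), followed by TLN1 (158 ± 6.83), ILK (115 ± 2.77), PARVA (99.95 ± 0.820), ZYX (74.1 ± 3.33), FHL2 (39.3 ± 0.431), TRIP6 (35.1 ± 1.52), LPP (29.6 ± 0.639), PXN (9.51 ± 0.560) and LIMS1 (7.53 ± 0.405). The libraries of neighbours in this order did not overlap in control. The same order held in OIM, where TRIP6 and LPP overlapped. With bFGF the top of the order changed: FHL2 (103 ± 2.95), TLN1 (99.8 ± 2.48), ILK (98.0 ± 3.61) and VCL (94.6 ± 2.86) each overlapped the next. FHL2 went from the 6th place to the 1st, VCL from the 1st to the 4th, and LPP passed below PXN with 15.2 ± 0.479 RPKM against 16.4 ± 0.566. That last crossing turns with the length used, since with the median transcript LPP (24.6 RPKM) stays above PXN (22.4).

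**Figure D3:**
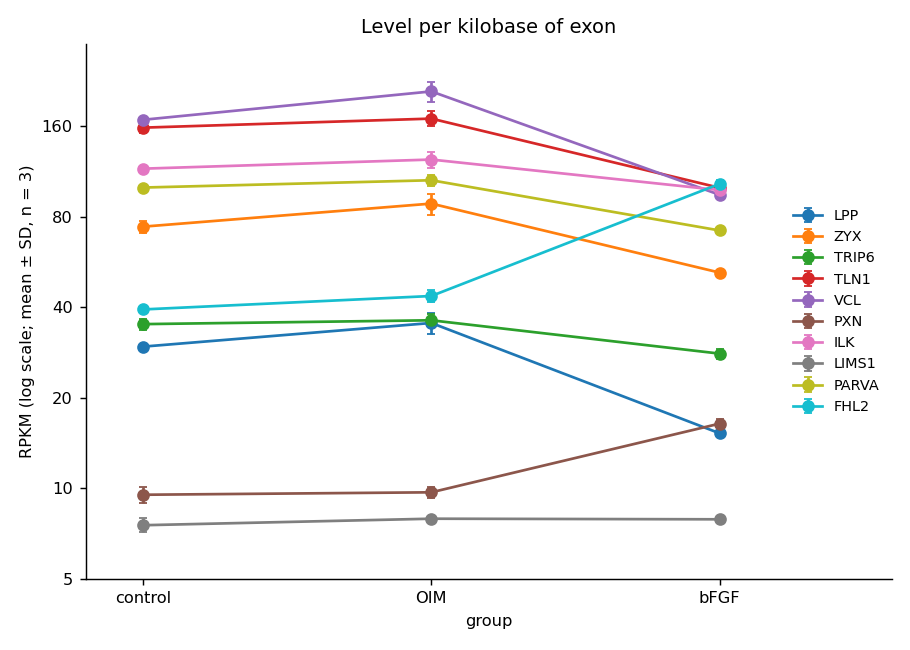
RPKM over merged exons (vertical log axis, mean with SD, n = 3) of the 10 adaptors in control, OIM and bFGF. The lines of VCL and TLN1 come down from 209 and 169 RPKM in OIM to 94.6 and 99.8 with bFGF, beside FHL2 at 103, while LIMS1 runs flat between 7.53 and 7.92.

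The length used matters for the genes with long or variable ends. LPP has 29120 bases of merged exon and a median transcript of 18011 bases, and its control level became 47.8 RPKM with the median transcript, above TRIP6. LIMS1, with 12981 and 4506 bases, became 21.7 RPKM, above PXN at 13.0. FHL2, with 4937 and 2734 bases, went to 71.0 RPKM in control, and with bFGF to 186 RPKM, well above TLN1 at 104, so that its overlap with TLN1 holds only for merged exons. In control and OIM, the first 6 places did not change with this choice, and with bFGF the first 7 did not. Among all genes tested with an annotated length (99.9%), VCL was above 98.0% and LIMS1 above 56.9% in control.

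The balance between partners does not depend on how a library is scaled, so it was followed as the ratio of CPM within each library for 6 pairs. The ratio of ZYX to LPP was 0.202, 0.228 and 0.210 in control, 0.231, 0.219 and 0.190 in OIM and 0.299, 0.295 and 0.280 with bFGF. Control and OIM overlapped, and bFGF libraries were higher. The ratio of TRIP6 to LPP was 0.0717 ± 0.00468 in control, 0.0618 ± 0.00438 in OIM and 0.111 ± 0.00146 with bFGF (SD, n = 3), so with bFGF it was 1.80 times its value in OIM. The bFGF libraries were above all others in this ratio too.

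The ratio of VCL to TLN1 was 0.671, 0.631 and 0.674 in control, 0.765, 0.739 and 0.785 in OIM and 0.587, 0.600 and 0.575 with bFGF, with no overlap among the groups. Relative to TLN1, VCL counts were highest in the OIM libraries and lowest in the bFGF libraries. Within the ILK complex, the ratio of LIMS1 to ILK was 0.422 ± 0.0199 in OIM and 0.530 ± 0.0171 with bFGF, and that of PARVA to ILK 1.75 ± 0.0447 and 1.50 ± 0.0581. FHL2 to PXN, the 2 genes that rose, went from 3.28 ± 0.217 in OIM to 4.57 ± 0.238 with bFGF. The exact permutation test (two-sided) gave p = 0.1 for all 6 ratios with bFGF against OIM and against control, and 0.129 after Benjamini-Hochberg adjustment over 18 comparisons. With 3 libraries a group 0.1 is the smallest p possible, so no ratio could pass 0.05. For OIM against control, p was 0.1 for TRIP6 to LPP and VCL to TLN1 and between 0.2 and 1.0 for the other 4 (exact permutation test).

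**Figure D4:**
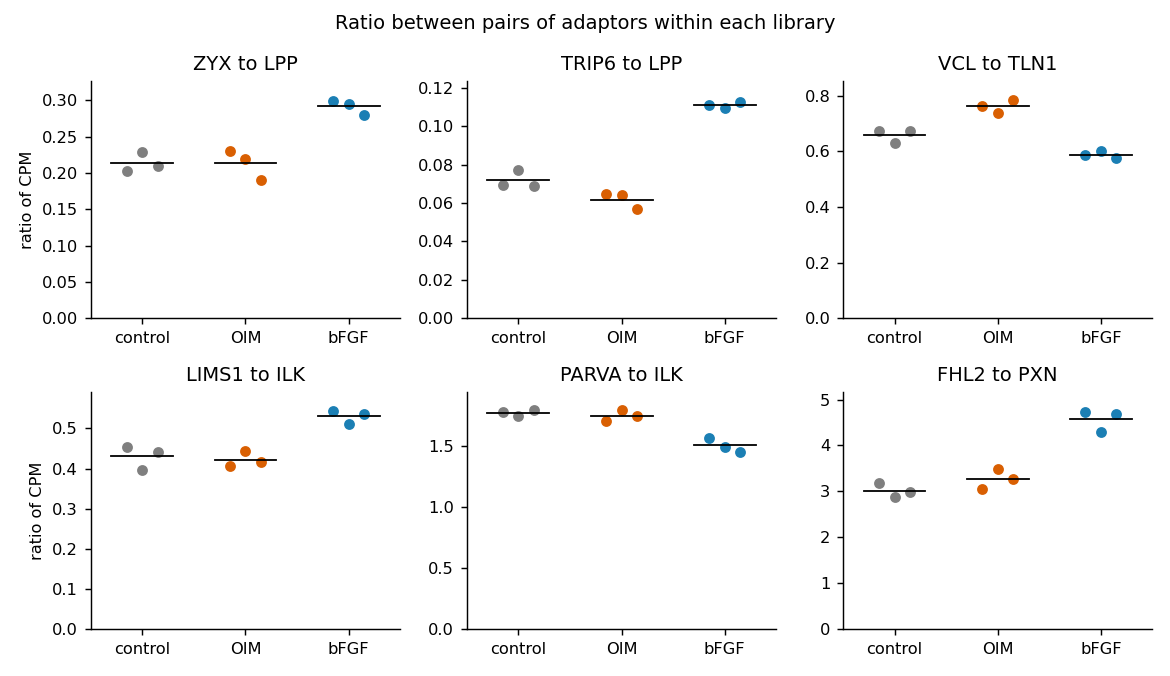
Ratio of CPM (vertical axes, from 0) for 6 pairs of adaptors in each library, with a line for the mean of each group. In every panel the bFGF libraries lie apart from the others, above them in 4 panels and below them for VCL to TLN1 (mean 0.588) and PARVA to ILK (mean 1.50).

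Each adaptor has close relatives in the genome, and 13 were followed, of which 11 passed the filter. PARVG and FHL5 did not, with at most 8 and 10 counts in any library. With bFGF against OIM, 3 relatives were called lower and 2 higher, beside 18.4% and 17.7% of all genes. LIMS2, which encodes PINCH2 and can take the place of PINCH1 in the ILK complex, fell from 79.6 ± 12.3 to 10.5 ± 0.579 CPM (log2 -2.92, edgeR adjusted p = 3.6e-16), while LIMS1 stayed near 102 CPM. FHL1, a LIM-domain protein of muscle, fell from 298 ± 17.0 to 123 ± 1.19 CPM (log2 -1.28, edgeR adjusted p = 4.6e-16), opposite in direction to FHL2. AJUBA, a zyxin relative that acts in Hippo signalling, fell from 17.6 ± 1.70 to 7.33 ± 0.262 CPM (log2 -1.27, edgeR adjusted p = 6.9e-11).

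The 2 relatives called higher were both low in expression. PARVB, the beta form of parvin, rose from 3.39 ± 0.421 to 7.78 ± 1.17 CPM (log2 1.20, edgeR adjusted p = 4.8e-07), opposite to PARVA. LPXN, a paxillin relative best known from blood cells, rose from 0.800 ± 0.102 to 1.62 ± 0.240 CPM (log2 1.02, edgeR adjusted p = 0.0075), in the direction of PXN. So in the parvin, PINCH, FHL, talin and zyxin families at least 1 gene was called lower where another was not called or rose.

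The other 6 relatives were not called with bFGF against OIM. FBLIM1, which encodes migfilin, and TGFB1I1, which encodes Hic-5, had log2 fold changes of -0.41 and -0.40. LIMD1 and FHL3 were at 0.42 and 0.18, WTIP at -0.15, and TLN2, the second talin, at 0.01 (112 ± 0.209 against 111 ± 5.13 CPM). With library totals alone, LIMD1 was called higher at 0.65 and WTIP turned to 0.07. Against control the same 3 were called lower, beside 20.0% of all genes, and 3 were called higher, beside 18.9%: PARVB (1.08), LPXN (0.77) and LIMD1 (0.55). The call of LPXN was lost without control replicate 1, control replicate 2, bFGF replicate 1 or bFGF replicate 2 (edgeR adjusted p from 0.068 to 0.13). With library totals alone FHL3 was called higher too, at 0.59. In OIM against control, 0 relatives were called by edgeR or DESeq2 (1.49% of all genes higher and 0.864% lower by edgeR), and 7 had an unadjusted p under 0.05 with OIM higher and 0 with OIM lower (14.2% and 12.0% of all genes). By adjusted p alone 5 were higher and 0 lower (7.69% and 5.87% of all genes): WTIP (0.28), TLN2 (0.22), FHL3 (0.19), FBLIM1 (0.19) and FHL1 (0.14).

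A wider list of 39 focal adhesion genes (kinases, kindlins, tensins, actin crosslinkers and others) placed the adaptors among their neighbours. Of the 37 tested, 15 were called lower and 4 higher with bFGF against OIM, where 18.4% and 17.7% of all genes were, and their median log2 fold change was -0.30. With library totals alone, 12 were called lower and 6 higher, beside 12.4% and 27.3% of all genes under that scaling. Among these 37, the 3 with the largest fall were NEDD9, a docking protein of the Cas family (311 to 32.2 CPM, log2 -3.27), PALLD, an actin crosslinker (698 to 172 CPM, log2 -2.02), and CSRP1, a LIM-domain protein that binds actin-associated proteins (420 to 142 CPM, log2 -1.57). The 3 with the largest rise were FERMT1, a kindlin that binds integrin tails with talin (3.18 to 13.8 CPM, log2 2.11), TES, a LIM-domain protein (1.15 to 2.43 CPM, log2 1.07), and TNS2, a tensin (132 to 196 CPM, log2 0.58). Their edgeR adjusted p-values lay between 4.3e-20 for NEDD9 and 0.0073 for TES.

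**Figure D5:**
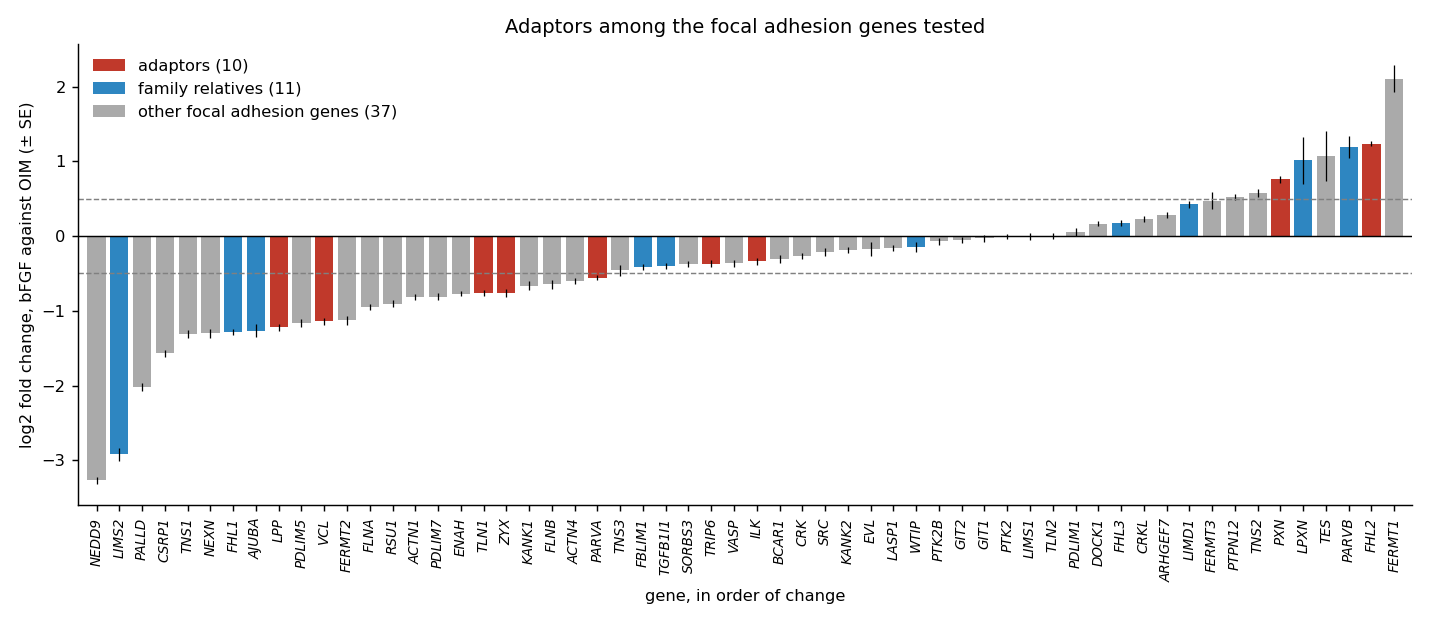
Log2 fold change with bFGF against OIM (vertical axis, bars from 0, with SE) of 10 adaptors, 11 relatives and 37 other focal adhesion genes, in order of change. LPP (-1.22) and VCL (-1.14) stand among the strong falls behind NEDD9 (-3.27), and FHL2 (1.24) is second to FERMT1 (2.11) at the other end.

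Against control, 12 of the 37 were called lower and 5 higher, beside 20.0% and 18.9% of all genes, with a median of -0.22. NEDD9 (-3.19), PALLD (-2.01) and CSRP1 (-1.47) again had the largest falls, and FERMT1 (2.16), TES (0.97) and TNS2 (0.82) the largest rises. With OIM against control edgeR and DESeq2 each called 0 of the 37, beside 1.49% of all genes called higher and 0.864% lower by edgeR. An unadjusted p under 0.05 was found for 15 with OIM higher and 0 with OIM lower, beside 14.2% and 12.0%, and by adjusted p alone 12 were higher and 0 lower, beside 7.69% and 5.87%.

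To see which genes ran in parallel with LPP, each gene's log2 CPM was centred on its own mean and compared with LPP over the 9 libraries, among 8904 other genes of at least 10 CPM on average. The 5 closest were PCDH18, a protocadherin (root mean square difference 0.051), PDLIM5, a LIM-domain protein of actin fibres (0.052), DCUN1D3 (0.056), RNF19B (0.058) and PCGF5 (0.064). PDLIM5 stood at 682 CPM in control, 766 in OIM and 342 with bFGF, and PCDH18 at 108, 127 and 55.3 CPM. VCL was the 7th closest of all 8904 genes (0.068), whereas ZYX was 571st and TRIP6 1761st, so LPP lay nearer to vinculin than to either of these. The places of its other relatives are not given here. Among the 10 adaptors, the nearest pair was TRIP6 and ILK (0.051) and the farthest LPP and FHL2 (1.14). These distances are descriptions over libraries of 3 groups.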

How the data were processed

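RNA from 9 libraries (3 control, 3 OIM and 3 bFGF) was analysed, grouped by the treatment in the sample labels. The authors deposited a table of raw gene counts with no normalization, beside estimated counts of non-coding transcripts and back-splice counts of circular RNAs. The study's methods name Cutadapt and STAR and a poly-A kit, whereas the labels name Trimmomatic, HISAT2, StringTie and a stranded kit that removes ribosomal RNA; the build is Sscrofa11.1 and the counting program is not given in the sources used here. Another 19 columns without a name or a value were not used, and 25 gene symbols had been altered to dates.

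For the tests, raw counts went into edgeR 4.0.16 under R 4.3.3 (filterByExpr, TMM, quasi-likelihood F test, 3 groups in 1 fit with 6 residual degrees of freedom). The thresholds were an adjusted p of 0.05 (Benjamini-Hochberg over 13662 genes) and a log2 fold change of 0.5. SE is the log2 fold change divided by the square root of F. The 95% intervals use these 6 degrees of freedom, whereas the F test also borrows from other genes. They are thus wider than its p-values imply. CPM are relative to the counts of all tested genes times the TMM factor, and log2 CPM for profile likeness had a prior count of 2. The common biological coefficient of variation was 0.0602. The fit was run on simulated counts with changes set only between OIM and control, so the bFGF comparisons were not checked in this way. No pair of libraries within a group differed by as little as sampling noise, which gives a mean chi-square per gene of about 1. It was 19.3 for both pairs with OIM replicate 2, 5.90 for OIM replicates 1 and 3, and 4.71 to 11.7 in the other groups. Alternatives were DESeq2 1.42.0, RLE factors, library totals alone, other filters, fits on the 2 groups compared, a replicate block, adjusted p alone and leaving out each library.

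Named throughout were the 10 adaptors and 13 relatives, the 3 largest rises and falls called among 39 other focal adhesion genes in each comparison, and the 5 genes closest to LPP. The members and lists were chosen with earlier results of these data known. The result of 1 gene that the list held is not reported here. No annotated protein sequences were used here.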

Additional observations from a re-analysis of the deposited data

Results flagged for a closer look

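Back-splice junctions, which mark circular RNAs, were counted in a separate part of the table that no comparison above used. On the strand of the gene, 10 circular RNAs lay inside 5 of the adaptors, with 51 junction reads over the 9 libraries together. They are listed because they were detected, and most had 2 or 3 reads in the libraries that held them. LPP held 3 of them with 14 reads, PARVA 2 with 13, VCL 3 with 11, LIMS1 1 with 11 and TLN1 1 with 2, and none was listed inside ZYX, TRIP6, PXN, ILK or FHL2. The highest count in any library was 7, for LIMS1 in OIM replicate 2, whose circular RNA had 2 reads in each of 2 other libraries and 0 in all bFGF libraries. These counts are too low for a comparison between groups, and all libraries held 6048 to 10029 circular RNA reads in all.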

How the results depend on the processing

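Of 30 log2 fold changes (10 adaptors in 3 comparisons), 25 kept their direction and their call, which needs both the adjusted p and the fold limit, under all 16 alternatives. Those that changed sign were near 0: PXN in OIM against control (-0.019 to 0.064 without 1 library, below 0 without control replicate 1 or OIM replicate 1) and LIMS1 in bFGF against OIM (0.22 with library totals alone, -0.022 to 0.0058 without 1 library, above 0 without OIM replicate 3 or bFGF replicate 1). Library totals alone left 2 adaptors called lower against control, beside 13.5% of all genes. The ratios that changed sign, both in OIM against control, were ZYX to LPP (log2 difference -0.065 to 0.076 without 1 library) and LIMS1 to ILK (-0.086 to 0.015).

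By adjusted p alone, with no fold limit, more genes passed by construction, and the shares over all genes were 7.69% higher and 5.87% lower in OIM against control, 33.8% and 33.5% in bFGF against OIM and 34.5% and 35.7% in bFGF against control. In OIM against control 4 adaptors, 5 relatives and 12 other genes were higher. In bFGF against OIM 4 relatives were higher and 5 lower, and 8 other genes higher and 23 lower. In bFGF against control 7 adaptors were lower, 5 relatives higher and 5 lower, and 10 other genes higher and 24 lower. Leaving out 1 library gave 3 to 7 adaptors higher in OIM against control by adjusted p alone, an alternative chosen after seeing the data. The shares over all genes were not counted in those fits.

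Replicate numbers are shared by the groups, but same-numbered libraries did not deviate together (r from -0.07 to 0.06). A replicate block changed no count of the adaptors, relatives or other focal adhesion genes called: 5 adaptors stayed called lower and 2 higher in bFGF against OIM. With library totals alone, all 5 genes closest to LPP stayed the same, but this is no check. A change of scaling shifts all genes of a library almost alike, so it nearly cancels in these distances. Of 30 levels per kilobase, 19 moved by more than 1 SD with the median transcript length. PARVG, FHL5, CASS4 and TNS4 had too few counts at this depth to be tested, as did the circular RNAs.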
